A study of Mus musculus with 6 samples.

Results

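The cells described here were colon tumour neutrophils that carried transcripts of at least 1 of Hmox1, Gpnmb, Gdf15 and Nceh1. Droplet barcodes that held no fewer than 200 genes and no more than 20% mitochondrial transcripts entered a neutrophil gate when at least 3 of the 6 genes Csf3r, Cxcr2, Il1r2, G0s2, Mmp9 and Hdc were detected, when S100a8 and S100a9 together had at least 5 unique molecular identifiers (UMIs, each standing for 1 captured transcript), and when Cd3e, Cd79a, Epcam, C1qa and Cpa3 were all at 0. A gated barcode was a member when its UMIs of Hmox1, Gpnmb, Gdf15 and Nceh1 summed to at least 2. This chose 1776 of 12702 gated neutrophils, out of 50875 kept barcodes of 6 libraries, and the other 10926 gated neutrophils served for comparison. The members were thus chosen by the measured UMIs of these 17 genes, whose values are described with no test.

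The AOM PN tumours came from VilcreER P53fl/fl Notch1Tg mice, which had 2 mg tamoxifen injected into the peritoneum and, starting 4 days later, 10 mg/kg azoxymethane (AOM, a colon carcinogen) once a week for 6 weeks. The labels place these 3 samples in the group Ageing Tumor. The Apc ICI tumours came from VilCreER Apcfl/fl mice, in which 70 µl of 100 µM 4-OH tamoxifen was injected once under the colonic mucosa (the group Intracolonic Induction, with no other treatment given). All 6 samples were from males, and each whole tumour was taken at clinical endpoint, dissociated and freed of dead cells by a DAPI sort. Villin-driven Cre acts in intestinal epithelium, and recombination in the neutrophils was not examined. Genotype, inducing agent, route and carcinogen all differ between the 2 models and cannot be told apart.

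Neutrophils are short-lived granulocytes whose granule proteins are made in the bone marrow, and those that enter tumours change their transcript content with time spent in the tissue. Hmox1 encodes haem oxygenase 1, which breaks haem down to biliverdin, iron and carbon monoxide and is induced through the transcription factor NRF2 when haem or oxidants accumulate. Gpnmb encodes a membrane glycoprotein of lysosome-rich phagocytes, Gdf15 a secreted stress-response cytokine, and Nceh1 a hydrolase of cholesteryl esters. Lysosomal genes are driven in part by the TFEB and TFE3 family of transcription factors, whose core motif in promoters reads CACGTG.

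Library totals ranged from 87107277 to 98583066 UMIs in AOM PN and from 59309093 to 60075436 UMIs in Apc ICI. The median member had 5084, 5989 and 3498 UMIs in AOM PN 1, 2 and 3 and 4677.5, 3935 and 3759 in Apc ICI 1, 2 and 3, against 3185, 3502 and 2757 and 3649.5, 2959 and 3269 in the other gated neutrophils. Members were thus deeper than the other gated neutrophils in all 6 libraries. A doublet score marked 15.3%, 24.8% and 9.76% of members in AOM PN and 13.9%, 16.6% and 8.59% in Apc ICI, against 6.74%, 6.06% and 6.25% and 2.51%, 5.85% and 4.03% of the others. Haemoglobin, which took 1.87% to 29.0% of all UMIs in AOM PN libraries and 21.4% to 61.4% in Apc ICI libraries, took 0.0168% to 3.94% and 4.84% to 13.7% of the members' own UMIs. Of the 15 pairs of libraries, each shared 4 to 34 kept barcode sequences, and no member's barcode was shared with a member of another library.

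Members were a smaller share of the gated neutrophils in AOM PN tumours than in Apc ICI tumours. They numbered 131 of 2193, 363 of 3632 and 82 of 2435 in AOM PN 1, 2 and 3, which is 5.97% (95% Wilson interval 5.06 to 7.04), 9.99% (9.06 to 11.01) and 3.37% (2.72 to 4.16). In Apc ICI 1, 2 and 3 they numbered 294 of 972, 743 of 2538 and 163 of 932, which is 30.2% (27.4 to 33.2), 29.3% (27.5 to 31.1) and 17.5% (15.2 to 20.1). The groups did not overlap, with means of 6.45% ± 3.34 in AOM PN and 25.7% ± 7.10 in Apc ICI (SD, n = 3 each). The difference of -19.2 percentage points had p = 0.1 in a two-sided exact permutation test over libraries, the smallest p that 3 libraries against 3 can give. With each barcode drawn down to 1000 UMIs, members made up 1.62%, 1.93% and 0.789% in AOM PN and 13.7%, 16.8% and 7.10% in Apc ICI.

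**Figure D1:**
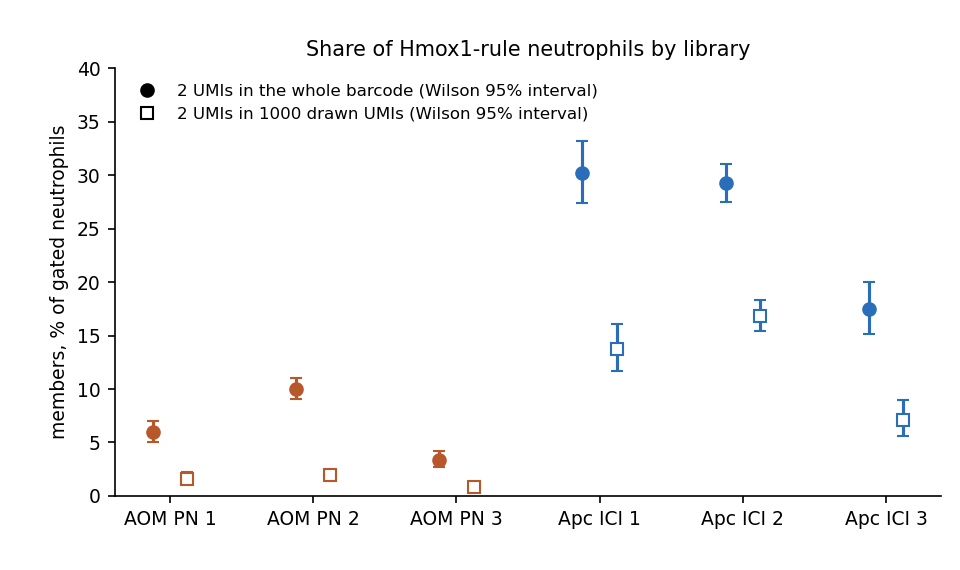
Share of gated neutrophils that were members, in percent, for each of the 6 libraries (AOM PN left, Apc ICI right). Filled points use all UMIs of a barcode with their 95% Wilson interval (counting error only) and open squares use 1000 drawn UMIs per barcode; by either measure the 3 AOM PN libraries lie below the 3 Apc ICI libraries, at 3.37% to 9.99% against 17.5% to 30.2% with all UMIs.

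Free RNA in droplets can place UMIs of these genes in cells that do not make them, so the same sum was read in barcodes gated as T cells. Such a barcode had at least 2 UMIs of Cd3e, fewer than 3 of the 6 neutrophil genes and no UMI of Cd79a, Epcam, C1qa or Cpa3. Mast cell, epithelial and macrophage gates were set the same way, with Cpa3, Epcam or C1qa in the place of Cd3e. At least 2 UMIs were found in 2.05%, 3.63% and 2.33% of T-cell barcodes in AOM PN and 6.12%, 2.86% and 4.55% in Apc ICI, at median depths of 4676, 8250 and 5366.5 UMIs and 7849, 5968 and 6241 UMIs. At 1000 drawn UMIs the T-cell shares were 0.293%, 0.454% and 0.117% in AOM PN and 0 in each Apc ICI library, which allows up to 1.23%, 2.21% and 2.83%. The member shares were above the T-cell shares in each of the 6 libraries by both measures, although the margin was small in AOM PN 3 (3.37% of gated neutrophils against 2.33% of T-cell barcodes). They were not above the shares in all other cells. Barcodes gated by Cpa3, a mast cell gene, reached at least 2 UMIs in 3.71%, 12.4% and 13.9% in AOM PN. Their median depths were 4084.5, 8227 and 8887.5 UMIs. In AOM PN 2 and 3 these shares exceeded the 9.99% and 3.37% of gated neutrophils. At 1000 drawn UMIs these mast cell shares were 0.0962%, 2.17% and 0.458%, above the members' 1.93% in AOM PN 2 alone. The Apc ICI libraries held 8, 14 and 18 such barcodes, of which 1 reached 2 UMIs. Barcodes gated by the epithelial gene Epcam did so in 16.5%, 14.3% and 15.7% in AOM PN and 24.2%, 36.5% and 22.7% in Apc ICI. These shares were above the member share in all libraries except Apc ICI 1. The median depths were 4582, 3241 and 3117 UMIs and 13514, 13945 and 11199 UMIs. At 1000 drawn UMIs the epithelial shares were 2.19%, 1.90% and 3.15% in AOM PN and 0.690%, 3.77% and 2.72% in Apc ICI, above the member share in AOM PN 1 and 3 and below it in the other 4 libraries. Barcodes gated by C1qa, a macrophage gene, reached at least 2 UMIs more often than neutrophils did. Their shares were 21.2%, 38.1% and 24.9% in AOM PN and 36.9%, 41.4% and 31.1% in Apc ICI. Median depths were 3543, 9065 and 8674 UMIs in AOM PN and 2776, 1995 and 1910 UMIs in Apc ICI. At 1000 drawn UMIs the macrophage shares were 6.93%, 10.1% and 4.53% in AOM PN and 10.4%, 18.2% and 16.6% in Apc ICI. They were above the member share in all libraries except Apc ICI 1.

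Hmox1 carried the rule. It was detected in 97.7%, 98.3% and 96.3% of members in AOM PN 1, 2 and 3 and in 95.9%, 95.7% and 95.1% in Apc ICI 1, 2 and 3. The level of Hmox1 was 8.23, 5.95 and 7.16 UMIs per 10000 in the members of AOM PN and 14.7, 26.5 and 13.3 in those of Apc ICI, while the other gated neutrophils held 0.273 to 0.333 and 0.337 to 0.545. Nceh1 was detected in 13.7%, 11.6% and 9.76% of members in AOM PN and in 38.8%, 31.4% and 20.9% in Apc ICI. Gdf15 reached 0%, 1.65% and 2.44% of members in AOM PN and 9.18%, 10.9% and 6.75% in Apc ICI. No member of AOM PN 1 carried a Gdf15 UMI, 0 of 131, which allows a share of up to 2.29%.

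Gpnmb was rare. It was found in 3 of 576 members of AOM PN (0.521%) and in 60 of 1200 members of Apc ICI (5%), so the data go against a description of these cells as Gpnmb-positive, and they are called Hmox1-led neutrophils below. A single gene of the 4 was present in 87.0%, 88.4% and 91.5% of members in AOM PN and in 58.5%, 64.7% and 77.3% in Apc ICI. Members with 3 or 4 of the genes made up at most 0.275% in an AOM PN library and 6.80%, 7.54% and 3.07% in Apc ICI 1, 2 and 3. Members of Apc ICI thus carried more of the 4 genes together as well as a higher Hmox1 level.

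**Figure D2:**
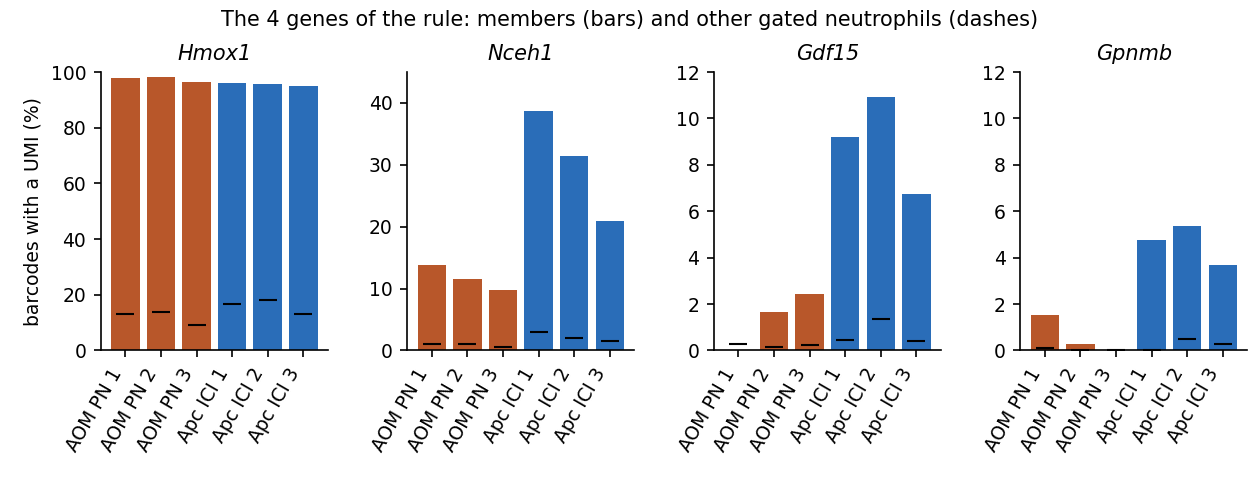
Percent of members with a UMI of Hmox1, Nceh1, Gdf15 and Gpnmb in each library (bars; AOM PN left, Apc ICI right), with dashes at the percent of the other gated neutrophils. Hmox1 was detected in 95.1% to 98.3% of members in all 6 libraries, while Gpnmb was detected in at most 1.53% in AOM PN and 5.38% in Apc ICI.

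Many members stood at the threshold of the rule. Exactly 2 UMIs of the 4 genes were carried by 48.9%, 33.9% and 56.1% of members in AOM PN and by 21.1%, 17.5% and 29.4% in Apc ICI. Just outside the threshold, 300, 493 and 234 gated barcodes in AOM PN and 136, 392 and 118 in Apc ICI carried 1 UMI. At least 10 UMIs were carried by 9.92%, 7.44% and 2.44% of members in AOM PN and by 36.1%, 41.5% and 19.6% in Apc ICI. Members of the 2 models therefore differed in how strongly they met the rule, which bears on each comparison between models below.

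Counts were summed per library and population and tested with edgeR, with the library as a block, so that members were set against the other neutrophils of the same tumour. Of 7000 genes tested over the 6 libraries, 728 were higher and 928 lower in members at an adjusted p under 0.05 (10.4% and 13.3%, together 23.7%). Without the 17 genes of the rule these were 725 and 920. All 3 Apc ICI libraries weighed on this count, which was 930 genes without Apc ICI 1, 1113 without Apc ICI 2 and 1047 without Apc ICI 3. Within AOM PN alone 499 of 8331 genes were higher and 513 lower (5.99% and 6.16%), and within Apc ICI alone 1119 of 7155 were higher and 1133 lower (15.6% and 15.8%).

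The largest rises that went the same way in all 6 libraries fell to genes of several roles. Among enzymes of sulfur, glutathione and peroxide chemistry, Tst (thiosulfate sulfurtransferase) rose by 2.18 on the log2 scale, Gstm1 (a glutathione S-transferase) by 2.15, Gclc (the catalytic subunit of the rate-limiting enzyme of glutathione synthesis) by 1.84 and Prdx1 (a peroxiredoxin) by 1.83. The chemokine Ccl24 rose by 2.59, the chitinase-like Chil3 by 2.21 and coagulation factor subunit F13a1 by 2.09, 3 genes also known from monocytes and macrophages. The heat shock gene Hspa1b rose by 2.11, the stress gene Gadd45g by 1.97, Gas2l3 by 2.37 and Fnip2, a partner of folliculin in nutrient sensing at the lysosome, by 1.95. The rises of Gadd45g and Gas2l3 were larger in Apc ICI than in AOM PN. Library log2 ratios of Gadd45g were 0.74, 0.70 and 0.39 in AOM PN and 3.40, 2.98 and 2.13 in Apc ICI. Those of Gas2l3 were 0.88, 0.94 and 0.52 in AOM PN and 3.57, 3.02 and 2.99 in Apc ICI. The largest falls were smaller in size. They were those of Rab43 (-1.69), the cystatin-family gene Stfa1 (-1.33), the ubiquitin ligase gene Rnf125 (-1.31), Scnn1a (-1.28), Klra17 (-1.26), Dck (deoxycytidine kinase, -1.22), the short-chain fatty acid receptor Ffar2 (-1.17), the kinase gene Lrrk2 (-1.16), Pip5k1b (-1.16), Gbp7 (-1.15), Ripor2 (-1.14) and the inflammation regulator Nlrp12 (-1.14). The calls of Ccl24 and Pip5k1b were lost without Apc ICI 3 (adjusted p = 0.0699 and 0.0535).

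**Figure D3:**
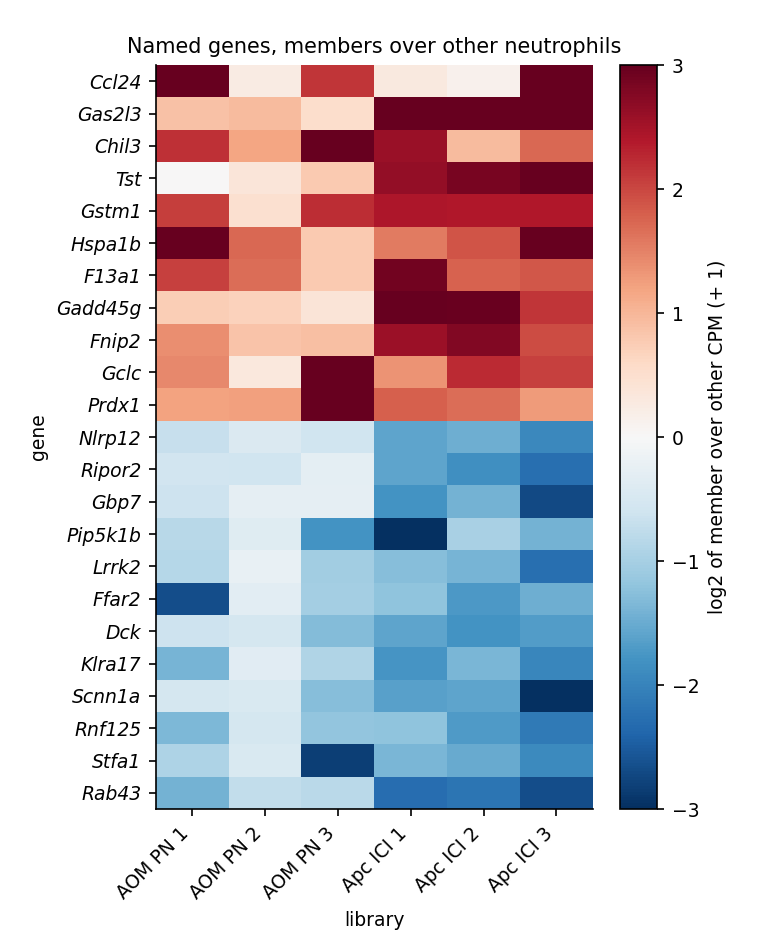
Log2 ratio of member over other CPM (pseudocount 1 CPM) for the genes named above for the largest rises and the largest falls among those that moved one way in every library. Rows are genes, columns the 6 libraries (AOM PN left, Apc ICI right) and colour runs over -3 to 3. Tst, Fnip2, Gas2l3 and Gadd45g were further above the other neutrophils in the Apc ICI columns and Prdx1 in that of AOM PN 3.

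Tst showed how the 2 models could differ for 1 gene. Its level was 7.11, 3.68 and 4.38 CPM (counts scaled to the library total) in the members of AOM PN 1, 2 and 3 and 39.1, 48.1 and 58.6 CPM in those of Apc ICI 1, 2 and 3, against 7.08, 2.62 and 2.12 CPM and 5.42, 5.86 and 4.27 CPM in the other gated neutrophils. Members of AOM PN overlapped the other neutrophils, and members of Apc ICI were above every other sum. The contrast was 0.42 ± 0.44 (SE), adjusted p = 0.603 within AOM PN and 3.15 ± 0.21 (SE), adjusted p = 2.24e-08 within Apc ICI, and the test of the difference between models gave -2.77 ± 0.41 (SE), adjusted p = 3.3e-04.

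Lysosomal genes rose in the Hmox1-led neutrophils. Of 42 listed genes of lysosomal enzymes, membrane proteins and the proton-pumping V-ATPase, 40 were tested, 26 were higher and 2 were lower in members, against 10.4% and 13.3% of all genes, and their median log2 fold was 0.82, beside 0.02 over all genes tested. The summed level of the list was 8058, 7267 and 7687 CPM in the members of AOM PN and 15638, 16512 and 14529.8 CPM in those of Apc ICI, against 6279, 6573 and 6234 CPM and 6956, 7421 and 6411 CPM in the other neutrophils. Within AOM PN alone 14 of 40 genes were higher and 1 lower, with a median of 0.32, and within Apc ICI alone 33 of 41 were higher and 3 lower, with a median of 1.17. The members of both models stood above the other neutrophils in summed level, and the distance was larger in Apc ICI.

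Among the proteases, Ctsb, which encodes cathepsin B, stood at 515, 402 and 346 CPM in the members of AOM PN 1, 2 and 3 and at 1358, 1334 and 1140.2 CPM in those of Apc ICI 1, 2 and 3. The other gated neutrophils had 293, 300.2 and 215 CPM in AOM PN and 355, 343 and 298 CPM in Apc ICI, so each library's members were above its other neutrophils, with 1.32 ± 0.21 (SE), adjusted p = 0.00249. Cstb, which encodes the cathepsin inhibitor cystatin B, moved with it: 873, 833 and 733 CPM in the members of AOM PN and 2987, 3465 and 2660.1 CPM in those of Apc ICI, against 535, 716 and 497 CPM and 797, 787 and 634 CPM (1.29 ± 0.25 (SE), adjusted p = 0.00466). The cathepsin genes Ctsd (0.95), Ctsl (0.94) and Ctsz (1.02) also rose on the log2 scale. Cst3, the gene of cystatin C, fell (-0.54), as did the membrane protein gene Lamp2 (-0.35). The call of Cst3 was lost without Apc ICI 1 or Apc ICI 2 (adjusted p = 0.0627 and 0.0624), and that of Lamp2 without AOM PN 3, Apc ICI 1, Apc ICI 2 or Apc ICI 3 (adjusted p = 0.0536, 0.0535, 0.0612 and 0.0638).

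Of the enzymes that degrade lipids and glycans, Lipa (lysosomal acid lipase) rose by 1.48 on the log2 scale, Psap (the precursor of the saposins) by 1.34 and Hexa by 0.97. Npc1 and Npc2, which export cholesterol from the lysosome, rose by 1.43 and 1.03. The V-ATPase subunit genes Atp6v1c1 (1.51), Atp6v1a (1.02) and Atp6v1h (0.95) rose as well. The membrane protein gene Lamp1 stood at 263, 191 and 177 CPM in the members of AOM PN and 427, 487 and 369 CPM in those of Apc ICI, against 132, 139 and 139.7 CPM and 158, 144 and 105 CPM in the others (1.17 ± 0.19 (SE), adjusted p = 0.00252).

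Among genes that tie the lysosome to nutrient sensing, Rragd, which encodes a Rag GTPase that recruits the kinase mTORC1 to the lysosome, stood at 2.37, 2.76 and 6.56 CPM in the members of AOM PN and at 50.9, 47.8 and 28 CPM in those of Apc ICI. In the other neutrophils it stood at 4.37, 2.55 and 2.12 CPM and 3.82, 5.36 and 5.98 CPM, so only the members of Apc ICI were set apart. The contrast was 0.21 ± 0.53 (SE), adjusted p = 0.857 within AOM PN and 3.14 ± 0.24 (SE), adjusted p = 6.94e-08 within Apc ICI, and the 2 contrasts differed by -2.98 ± 0.51 (SE), adjusted p = 0.00106. Fnip2 rose in both models, to 35.5, 21.8 and 19.7 CPM in the members of AOM PN against 12.8, 11.7 and 10.1 CPM in the others (1.13 ± 0.21 (SE), adjusted p = 0.00447) and to 191, 184 and 108 CPM in the members of Apc ICI against 31.2, 25.8 and 26.9 CPM (2.56 ± 0.17 (SE), adjusted p = 1.89e-08). Mcoln1, the gene of a lysosomal calcium channel, had 4.74, 2.15 and 2.19 CPM in the members of AOM PN and 22, 25.8 and 17.3 CPM in those of Apc ICI, against 2.41, 3.24 and 2.12 CPM and 7.33, 5.86 and 5.55 CPM. Tfeb, the gene of the transcription factor itself, was -0.18 within AOM PN (adjusted p = 0.628) and 0.83 within Apc ICI (adjusted p = 5.14e-04), with a difference of -1.03 ± 0.23 (SE), adjusted p = 0.0071 (adjusted p = 0.0709 without AOM PN 2).

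Promoters of 4 of these genes are shown because each holds the CACGTG motif, printed in capitals, within 250 bases before to 50 after the start. They were chosen for holding it and are examples. The sequences are those of RefSeq on GRCm38.p6, all on the plus strand: Nceh1 at chr3:27182754-27183053, Mcoln1 at chr8:3500269-3500568, Lamp1 at chr8:13158911-13159210 and Naglu, the gene of a heparan sulfate glycosidase described below, at chr11:101069844-101070143.
Nceh1: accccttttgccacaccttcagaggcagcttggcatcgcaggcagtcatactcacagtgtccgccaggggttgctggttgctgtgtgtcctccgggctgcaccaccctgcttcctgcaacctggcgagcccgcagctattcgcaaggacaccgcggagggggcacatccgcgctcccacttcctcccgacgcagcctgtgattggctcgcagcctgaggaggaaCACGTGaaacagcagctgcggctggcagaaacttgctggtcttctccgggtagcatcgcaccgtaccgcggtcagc
Mcoln1: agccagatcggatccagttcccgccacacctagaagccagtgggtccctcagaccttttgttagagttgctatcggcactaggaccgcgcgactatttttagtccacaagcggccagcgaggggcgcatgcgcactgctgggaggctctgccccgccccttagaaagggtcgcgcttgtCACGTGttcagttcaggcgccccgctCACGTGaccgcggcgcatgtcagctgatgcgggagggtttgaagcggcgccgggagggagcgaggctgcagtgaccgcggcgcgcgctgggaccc
Lamp1: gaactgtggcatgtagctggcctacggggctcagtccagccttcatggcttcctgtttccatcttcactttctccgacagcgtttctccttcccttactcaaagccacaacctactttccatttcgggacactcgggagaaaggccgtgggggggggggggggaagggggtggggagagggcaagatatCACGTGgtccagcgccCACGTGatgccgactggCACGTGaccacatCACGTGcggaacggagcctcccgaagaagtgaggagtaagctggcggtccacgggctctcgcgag
Naglu: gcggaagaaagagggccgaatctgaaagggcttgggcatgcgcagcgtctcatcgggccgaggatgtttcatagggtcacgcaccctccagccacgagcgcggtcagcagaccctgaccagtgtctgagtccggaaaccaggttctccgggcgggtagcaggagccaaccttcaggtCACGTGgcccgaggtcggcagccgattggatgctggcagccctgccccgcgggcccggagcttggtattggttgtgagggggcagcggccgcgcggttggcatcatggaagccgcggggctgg
Nceh1 and Naglu held the motif 1 time each, Mcoln1 2 times and Lamp1 4 times. Of the other genes of the rule, Gpnmb and Gdf15 held no CACGTG in this window, and Hmox1 had no promoter in the table. CACGTG, which reads the same on both strands, was present in 17.3% of the promoters of genes higher in members (99 of the 573 with a promoter in the table), in 8.74% of those lower (63 of 721), in 11.3% of those tested (627 of 5534) and in 7.24% of all 27025 promoters. Of the 26 lysosomal genes that rose, 18 had a promoter in the table and 6 of these held the motif. The motif TGACNNNGC, the core bound by NRF2 with small MAF proteins, searched on both strands, whose first letters can overlap the end of a CACGTG, was present in 19.4% of promoters of genes higher, 16.0% of those lower and 15.6% of those tested. The motifs TCATGTG and TGACTCA were searched as well. TCATGTG was present in 5.41% of promoters of genes higher, 1.80% of those lower and 2.20% of those tested. TGACTCA was present in 5.24%, 4.72% and 3.83%. These are counts of letters in a window and show no binding by any factor.

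Genes of the NRF2 and glutathione list followed, with 10 of 22 tested higher and 3 lower, against 10.4% and 13.3% of all genes. Their median log2 fold was 0.62, and 7 were higher within AOM PN alone and 13 within Apc ICI alone. Nqo1, a quinone reductase, rose by 2.08 ± 0.30 (SE), adjusted p = 0.00205, and Gclm, the regulatory subunit of glutamate-cysteine ligase, by 1.37 ± 0.21 (SE), adjusted p = 0.00237. Srxn1 (sulfiredoxin) rose by 1.36, Osgin1 by 1.27 and Mafg, a partner of NRF2, by 0.98. Sqstm1, the autophagy receptor p62, stood at 315, 362 and 357 CPM in the members of AOM PN and 1053, 1171 and 1052 CPM in those of Apc ICI, against 258, 310.0 and 263 CPM and 358, 378 and 236 CPM. Nfe2l2, which encodes NRF2 itself, fell by 0.30 on the log2 scale (adjusted p = 0.0263), a call lost without AOM PN 1, AOM PN 2, Apc ICI 1 or Apc ICI 2 (adjusted p = 0.0589, 0.0693, 0.107 and 0.0908). Gsr, glutathione reductase, fell too (-0.43).

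The products of haem breakdown are iron and biliverdin. Of 17 tested genes of haem and iron handling outside the rule, 6 were higher and 2 lower, against 10.4% and 13.3% of all genes, with a median log2 fold of 0.25. Within AOM PN alone 2 of 17 were higher and 2 lower (median 0.04), and within Apc ICI alone 6 of 17 were higher and 2 lower (median 0.39). Ftl1, the ferritin light chain, stood at 7552, 6918 and 9092 CPM in the members of AOM PN 1, 2 and 3 and at 27039, 34762 and 26593 CPM in those of Apc ICI 1, 2 and 3, against 5078, 5607 and 5317 CPM and 8019.9, 8371 and 7486 CPM in the other neutrophils. Each sum of members was above every sum of other neutrophils of its model, with 0.57 ± 0.09 (SE), adjusted p = 0.00154 within AOM PN and 1.88 ± 0.12 (SE), adjusted p = 1.61e-08 within Apc ICI. Fth1, the heavy chain, was 0.13 ± 0.09 (SE), adjusted p = 0.362 within AOM PN and 0.95 ± 0.12 (SE), adjusted p = 1.41e-05 within Apc ICI. Blvrb, a biliverdin reductase, rose in both models, by 0.99 in AOM PN and 1.24 in Apc ICI. Slc40a1, the iron exporter ferroportin, was -0.08 ± 0.13 (SE), adjusted p = 0.765 within AOM PN and 1.19 ± 0.18 (SE), adjusted p = 8.62e-05 within Apc ICI, and the contrasts differed by -1.32 ± 0.25 (SE), adjusted p = 0.00219. Hp, haptoglobin, fell (-0.97). Erythroid transcripts, which include the haemoglobin genes, moved with these results. Of 8 markers edgeR called 0 over all libraries (1 lower at an unadjusted p under 0.05). DESeq2 also called 0, and edgeR called 6 lower with no filter on low counts, 3 without AOM PN 3 and 5 of 6 with members chosen at 1000 UMIs. In AOM PN alone, 6 of 8 were lower in members (median -1.34), within Apc ICI alone 0 were called, also at an unadjusted p, and for 3 the contrast was lower in AOM PN than in Apc ICI, a count of 0 without AOM PN 2 (6 at an unadjusted p), 1 without Apc ICI 1 or Apc ICI 2, 5 without Apc ICI 3 and 6 without AOM PN 3. Their summed level was 37050.1, 34324 and 155 CPM in the members of AOM PN and 80028, 48290.5 and 145338 CPM in those of Apc ICI, against 74501, 68374 and 6029.8 CPM and 65911, 58854 and 231997 CPM in the others, and their part in the results was not tested.

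Hypoxia genes rose in the members of Apc ICI. Over all libraries 8 of 16 tested genes were higher and none was lower, against 10.4% and 13.3% of all genes. Their median log2 fold was 0.64. Within AOM PN alone edgeR called 0 of 16 (median 0.12), where it called 12.1% of all genes, and 2 higher and 0 lower had an unadjusted p under 0.05. Within Apc ICI alone 12 of 16 were higher (median 1.14). The count of 8 was 2 without Apc ICI 1, 5 without Apc ICI 2 and 2 without Apc ICI 3. Summed levels were 2377, 2012 and 2214 CPM in the members of AOM PN and 3827, 3248 and 3141 CPM in those of Apc ICI, against 2479, 2029 and 1936 CPM and 1674, 1640.3 and 1972 CPM in the others, so the members of Apc ICI lay above all other sums.

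Vegfa, a growth factor for blood vessels, stood at 134, 181 and 123 CPM in the members of AOM PN and 284, 240.1 and 176 CPM in those of Apc ICI, against 144, 154 and 102 CPM and 134, 104 and 80.7 CPM. Its contrast was 0.16 ± 0.11 (SE), adjusted p = 0.417 within AOM PN and 1.15 ± 0.13 (SE), adjusted p = 3.69e-06 within Apc ICI, with a difference of -1.01 ± 0.16 (SE), adjusted p = 6.7e-04. Ero1l, an oxidase of the endoplasmic reticulum, was 0.32 within AOM PN (adjusted p = 0.0706) and 1.81 within Apc ICI (adjusted p = 3.68e-08). The mitophagy receptor Bnip3 was 0.00 within AOM PN (adjusted p = 0.997) and 1.35 within Apc ICI (adjusted p = 3.48e-06). Of the glycolysis list, 1 of 18 genes was higher and 2 lower within AOM PN, and 12 of 18 were higher and 2 lower within Apc ICI. Over all genes 5.99% were higher and 6.16% lower within AOM PN, and 15.6% and 15.8% within Apc ICI. Pfkl, a phosphofructokinase, was 0.16 in AOM PN (adjusted p = 0.581) and 1.61 in Apc ICI (adjusted p = 4.82e-07). Tpi1, triosephosphate isomerase, rose in both (0.51 in AOM PN and 1.74 in Apc ICI), while the lactate transporter Slc16a3 (-0.60) fell over all libraries.

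Of 22 tested genes of lipid droplets and cholesterol, 11 were higher and 0 lower in members, against 10.4% and 13.3% of all genes. Their median log2 fold was 0.45. Plin2, the coat protein of lipid droplets, stood at 227, 133 and 142 CPM in the members of AOM PN and 422, 384 and 325 CPM in those of Apc ICI, against 208, 100.5 and 68.2 CPM and 184, 146 and 199.9 CPM (0.84 ± 0.16 (SE), adjusted p = 0.00429). Soat1, which esterifies cholesterol, rose by 0.76 and the scavenger receptor gene Msr1 by 1.79. Npc1, Npc2 and Lipa, given above with the lysosome, and Hilpda, counted also with hypoxia, belong to this list too.

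Among secreted factors, Ccl3, a chemokine for myeloid and T cells, stood at 1333, 545 and 993 CPM in the members of AOM PN and 2638, 3724 and 3414 CPM in those of Apc ICI, against 913, 489.5 and 539.8 CPM and 805, 998 and 962 CPM (1.20 ± 0.22 (SE), adjusted p = 0.00372). Tnf (0.84), Cxcl16 (1.02) and Ccl9 (0.87) rose, and Il1b (-0.45) fell. In all 5 of 23 tested chemokine and cytokine genes were higher and 2 lower, against 10.4% and 13.3% of all genes. Within Apc ICI alone 12 were higher and 4 lower, against 15.6% and 15.8% of all genes. Csf1, a macrophage growth factor, was at -0.17 within AOM PN (adjusted p = 0.347) and 1.13 within Apc ICI (adjusted p = 2.47e-06), and the contrasts differed by -1.31 ± 0.16 (SE), adjusted p = 7.39e-05.

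Of 21 genes tied to suppression of T cells by neutrophils, 2 were higher and 7 lower, against 10.4% and 13.3% of all genes. The risers were Arg1, arginase 1 (1.66 ± 0.29 (SE), adjusted p = 0.003), and Spp1, osteopontin (0.83 ± 0.26 (SE), adjusted p = 0.039), whose call was lost without AOM PN 3, Apc ICI 1, Apc ICI 2 or Apc ICI 3 (adjusted p = 0.0713, 0.0897, 0.0857 and 0.0934). Those that fell included the leukotriene synthesis genes Alox5 (-1.04) and Alox5ap (-0.56) and the receptor gene Trem1 (-0.64). Cd274, which encodes PD-L1, was -0.15 within AOM PN (adjusted p = 0.526) and 0.98 within Apc ICI (adjusted p = 2.8e-05), with a difference of -1.14 ± 0.20 (SE), adjusted p = 0.00113.

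Interferon-stimulated genes were lower in members. Of 30 tested, 17 fell and 1 rose, against 13.3% and 10.4% of all genes, with a median log2 fold of -0.61. Within AOM PN alone 4 fell and 2 rose, and within Apc ICI alone 27 fell. The count of 17 was 11 without Apc ICI 2. Summed levels were 3661, 4558 and 2698 CPM in the members of AOM PN and 9003, 18195 and 6708 CPM in those of Apc ICI, against 5345, 5219 and 3135 CPM and 14617, 34175 and 16188 CPM in the others, so that Apc ICI lay above AOM PN in both populations and members lay below the others in each library. Isg15, a ubiquitin-like protein, stood at 687, 901 and 425 CPM in the members of AOM PN and 1884, 4374 and 1585 CPM in those of Apc ICI, against 1216, 1329.7 and 617 CPM and 3157, 8677 and 3809 CPM (-0.80 ± 0.11 (SE), adjusted p = 0.00178). Irf7 (-0.71), Trim30a (-0.73) and Ifit1 (-0.87) also fell, and Ifi205 rose (1.70).

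**Figure D4:**
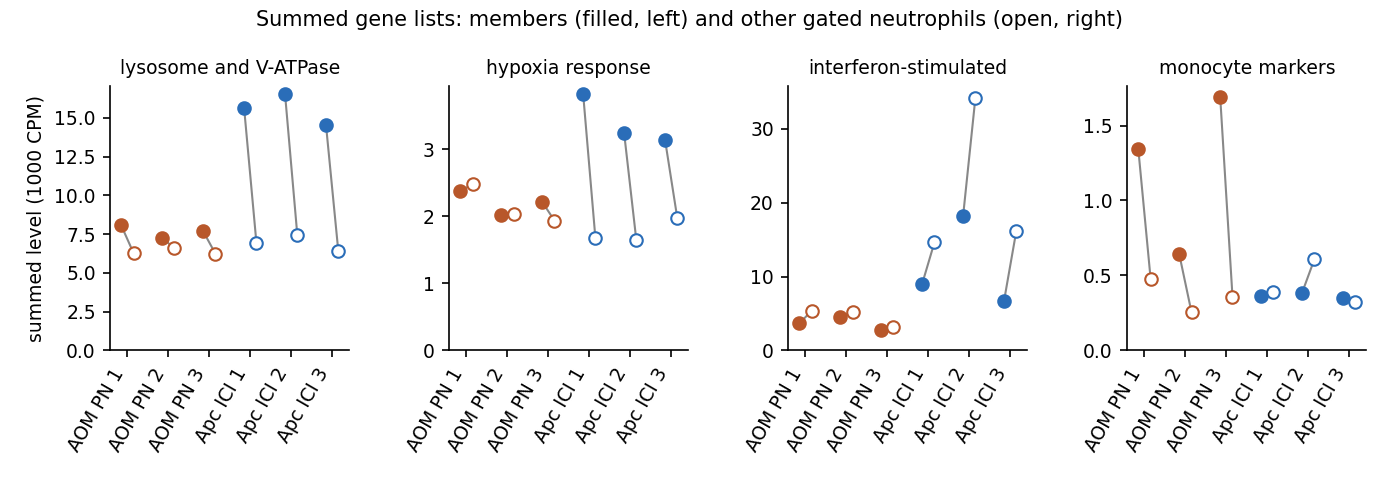
Summed level in CPM of 4 gene lists (lysosome and V-ATPase, hypoxia response, interferon-stimulated genes, monocyte markers) in each library, AOM PN left and Apc ICI right, with members as filled points left of the other gated neutrophils as open points. Members lay above the others for lysosomal genes in all 6 libraries and below them for interferon-stimulated genes, while monocyte markers were highest in the members of AOM PN.

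Genes of neutrophil granules and of circulating neutrophils were lower too. Against 13.3% and 10.4% of all genes, 15 of 30 tested fell and 1 rose (median log2 fold -0.63). They fell within AOM PN alone (15 of 32) and within Apc ICI alone (19 of 30). Retnlg, a marker of circulating neutrophils, stood at 6699, 1525 and 4280.1 CPM in the members of AOM PN and 890.1, 1005 and 2536 CPM in those of Apc ICI, against 13794, 2666 and 4313 CPM and 1928, 2777 and 8603 CPM (-1.02 ± 0.18 (SE), adjusted p = 0.00363). The collagenase gene Mmp8 (-1.04), Pglyrp1 (-1.07) and Padi4 (-0.82), whose product citrullinates histones, fell. Ltf, lactoferrin, was -0.50 ± 0.24 (SE), adjusted p = 0.203 within AOM PN and rose within Apc ICI, at 1.27 ± 0.18 (SE), adjusted p = 3.23e-05.

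Siglecf, a receptor that marks long-lived tumour neutrophils in mouse lung tumours, fell in members (-0.94 ± 0.21 (SE), adjusted p = 0.00888), and of 24 tested genes of that programme 5 were higher and 5 lower. Over all genes tested 10.4% were higher and 13.3% lower. Surface receptors fell more often than they rose, 20 against 4 of 44, among them Siglece (-0.74), Cd300ld (-0.84), Cd80 (-0.67) and Tnfrsf1a (-0.67). Of the transcription factor genes, 11 of 57 rose and 17 fell, against 10.4% and 13.3% of all genes. Jun (1.20), Cebpa (1.40), Id2 (0.85) and Atf3 (0.74) were among the risers and Fosl2 (-0.84), Fos (-0.54), Spi1 (-0.50) and Irf1 (-0.46) among those that fell.

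Of 6 tested neutrophil markers outside the rule, 0 were higher and 4 lower in members, with a median log2 fold of -0.57. Over all genes tested 10.4% were higher and 13.3% lower. Of the same 6 markers, 5 were lower within AOM PN alone and 4 within Apc ICI alone, with 0 higher in either. Markers of other cells moved with these results. Of the macrophage markers outside the rule 4 of 11 tested were higher and none lower, with summed levels of 923, 718 and 996 CPM in the members of AOM PN and 898, 602 and 635 CPM in those of Apc ICI against 461, 463 and 565 CPM and 414, 389.9 and 286 CPM in the others. C1qa was at 0 by the rule, and 2 of the 15 listed markers had no UMI in any member. Of the monocyte markers 7 of 8 were higher, with sums of 1342, 641 and 1689 CPM and 361, 385 and 349 CPM in members against 479, 254 and 359 CPM and 389.8, 608 and 325 CPM in the others, highest in the members of AOM PN. MHC class II genes were higher in 5 of 9 and lower in 1, a count that by edgeR was 0 higher without AOM PN 1 and 0 higher without Apc ICI 1 (6 higher at an unadjusted p under 0.05 in both), and 7 higher by DESeq2 with all libraries. At least 1 UMI of a macrophage gene was found in 41.2%, 48.2% and 46.3% of members in AOM PN and 35.4%, 28.5% and 22.1% in Apc ICI, against 29.0%, 37.9% and 32.3% and 37.8%, 28.0% and 24.3% of the others.

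When all barcodes with such a UMI were removed from both populations, 957 of 5750 genes were called (16.6%). The lysosomal list then had 23 of 39 tested genes higher, the NRF2 list 9 of 21 higher, the hypoxia list 6 of 16 higher, the interferon-stimulated list 15 of 28 lower and the granule list 9 of 27 lower. Of 3 monocyte markers then tested edgeR called 0 (1 lower at an unadjusted p under 0.05), and of 7 MHC class II genes 0 were higher, also at an unadjusted p, and 1 was lower. Fn1, fibronectin, was 1.79 ± 0.22 (SE), adjusted p = 8.45e-04 with all barcodes and 0.15 (adjusted p = 0.757) without those barcodes. With doublet-marked barcodes removed, 27 lysosomal genes were higher, 6 of 7 monocyte markers tested were higher, and 0 of 8 MHC class II genes were higher (3 at an unadjusted p under 0.05) and 1 lower. With members chosen at 1000 UMIs per barcode, 845 of 3627 genes were called (23.3%), including 21 of 37 lysosomal genes higher.

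The levels also followed the number of UMIs of the 4 genes. At 1000 UMIs per barcode, lysosomal transcripts averaged 5.05, 6.23, 8.31 and 14.4 UMIs per 1000 in the barcodes of AOM PN 1 with 0, 1, 2 and at least 3 UMIs of the 4 genes. In AOM PN 2 they averaged 6.30, 7.10, 7.94 and 11.2, and in AOM PN 3 6.01, 6.83, 7.33 and 8, the last 2 classes of AOM PN holding 4 to 51 barcodes. In Apc ICI 1 they averaged 9.01, 14.2, 20.1 and 20.9, in Apc ICI 2 7.92, 12.9, 18.7 and 19.2, and in Apc ICI 3 5.92, 13.3, 15.4 and 16.7. The averages thus ran up over the classes in all 6 libraries. The classes count drawn UMIs, so many members by the rule on all UMIs sit in the classes 0 and 1: at least 2 drawn UMIs were kept by 35 of 131, 69 of 363 and 19 of 82 members in AOM PN and by 132 of 294, 422 of 742 and 65 of 163 in Apc ICI. Interferon-stimulated transcripts ran down over the classes 0, 1 and 2 in the 3 Apc ICI libraries, with 17.1, 12.045 and 9.75 UMIs per 1000 in Apc ICI 1, 35.9, 27.9 and 16.0 in Apc ICI 2 and 14.1, 8.30 and 6.92 in Apc ICI 3. With at least 3 UMIs they averaged 9.28, 16.9 and 5.50, so the fall stopped in Apc ICI 2. Over all classes they averaged 4.52, 4.15, 4.125 and 3.89 in AOM PN 1. In AOM PN 2 they averaged 5.13, 4.80, 3.96 and 5.78, and in AOM PN 3 3.26, 2.75, 1.40 and 3.50. The class of at least 3 UMIs was thus the highest in AOM PN 2 and 3. The classes share the libraries and were formed by the rule's own genes, so no test was made.

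**Figure D5:**
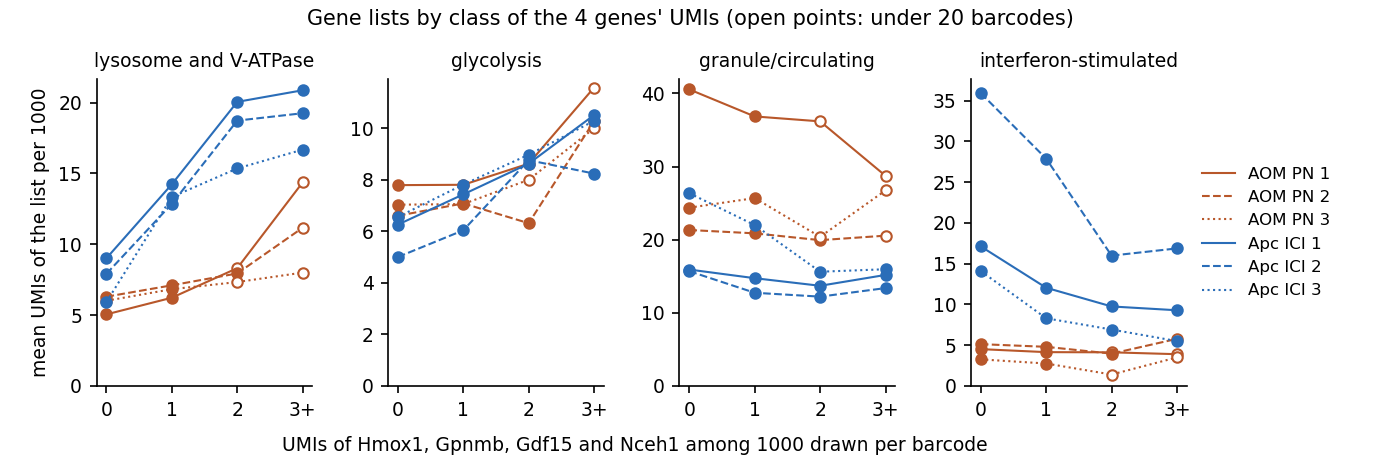
Mean UMIs per 1000 of lysosomal, glycolysis, granule and interferon-stimulated genes in gated neutrophils drawn down to 1000 UMIs, by the number of UMIs of the 4 genes of the rule (0, 1, 2, at least 3), 1 line per library (AOM PN and Apc ICI); open points hold fewer than 20 barcodes. Lysosomal transcripts were higher at 1 UMI than at 0 in all 6 libraries, and highest at 15.4 to 20.9 per 1000 in the Apc ICI barcodes with 2 or more.

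Between models, the Hmox1-led neutrophils differed at 1409 of 5543 genes tested (25.4%), with 680 higher and 729 lower in AOM PN than in Apc ICI (12.3% and 13.2%). This count was 843 without Apc ICI 1 and 776 without Apc ICI 2. The other gated neutrophils of the same libraries differed at 173 of 8761 genes (1.97%, with 59 or 0.673% higher and 114 or 1.30% lower), a count that was 59 without Apc ICI 2 and 96 to 110 without AOM PN 1, AOM PN 2, AOM PN 3 or Apc ICI 1. Other settings moved these counts: DESeq2 called 1064 genes in members and 388 in the others, edgeR with no filter on low counts 1709 and 928, and edgeR with members chosen at 1000 UMIs 109 of 848 genes (12.9%) in members and 189 of 6146 (3.08%) in the others. Lysosomal genes were lower in AOM PN members for 24 of 41 genes and higher for 4, while among the other neutrophils 1 of 40 was higher and none lower. Interferon-stimulated genes were lower in AOM PN for 15 of 30 among members and 15 of 31 among the others. Granule genes were higher in AOM PN members for 11 of 28 and lower for 1.

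Among the genes highest in AOM PN members over Apc ICI members by the naming rule were Chil3 (4.90), the mast cell protease genes Mcpt2 (4.81) and Mcpt1 (3.85), Eps8 (4.19), the proteoglycan gene Vcan (3.91), Anxa6 (2.93), Mcub (2.90), the metalloprotease gene Mmp19 (2.69) and Pi16 (2.58). Most of these were called higher in AOM PN among the other neutrophils too: Chil3 (4.59), Mcpt2 (4.50), Mcpt1 (4.13), Eps8 (3.11), Mcub (2.60) and Anxa6 (2.40). Vcan (2.69), Mmp19 (1.32) and Pi16 (0.86) were not called there. Mcpt2 stood at 326, 63.2 and 718 CPM in the members of AOM PN and 3.22, 18.8 and 14.7 CPM in those of Apc ICI, and at 594, 104 and 1045 CPM and 9.56, 30.3 and 37.6 CPM in the other neutrophils, so within AOM PN this mast cell transcript was higher in the other neutrophils than in the members. Barcodes with Cpa3, another mast cell gene, were not in the gate. Markers of several other cells moved with this contrast. In AOM PN members the mast cell markers were higher for 2 of 2 tested, monocyte markers for 5 of 8, dendritic markers for 3 of 3, MHC class II genes for 6 of 8 and macrophage markers for 3 of 9 (1 lower). Epithelial markers were lower for 3 of 4 and erythroid markers for 2 of 8. Their part in the contrast was not tested.

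Among the genes lowest in AOM PN members, Naglu stood at 2.37, 0.614 and 0 CPM in the members of AOM PN and 46.1, 37.1 and 20 CPM in those of Apc ICI, against 1.36, 1.1 and 1.62 CPM and 4.78, 4.52 and 0.854 CPM in the others. Only the members of Apc ICI were high, at 3.26 ± 0.24 (SE), adjusted p = 5.75e-08 within that model. Rragd (-3.78), Gpsm1 (-4.53), Cipc (-3.97) and Mpp7 (-4.48) were also lower. In the other neutrophils Gpsm1 (-3.10) and Mpp7 (-2.71) were called lower too, while Rragd (-0.76) and Cipc (-0.49) were not called. The interferon-stimulated genes Ifit3 (-3.98) and Oasl2 (-3.97) were lower in AOM PN members, and in the other neutrophils as well (-4.86 and -5.12). The metallothionein genes Mt3 and Mt4 had 2 UMIs each in AOM PN members and 215 and 191 in Apc ICI members, ratios of 0.0124 (95% exact interval 0.00149 to 0.0453, counting error only) and 0.0139 (0.00168 to 0.0510). Syngr1 had 1 UMI in AOM PN members and 137 in Apc ICI members, a ratio of 0.00971 (0.000244 to 0.0550). Nos2, inducible nitric oxide synthase, had 1 UMI against 71, a ratio of 0.0187 (0.000468 to 0.108). The fitted log2 folds of these 4 genes depend on the prior count and are left out. Mt3, Mt4 and Syngr1 were lower in AOM PN among the other neutrophils as well. Their means there were 0.999 ± 1.01, 0.478 ± 0.235 and 1.23 ± 0.533 CPM in AOM PN (SD, n = 3 each). In Apc ICI they were 36.3 ± 7.43, 34.5 ± 16.1 and 7.74 ± 1.03 CPM.

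The test of whether members differed from other neutrophils by another amount in AOM PN than in Apc ICI called 889 of 7936 genes (11.2%), 373 with a higher and 516 with a lower contrast in AOM PN (4.70% and 6.50%). It shares its libraries with the comparisons above. The count was 281 without AOM PN 2 and 495 without Apc ICI 2, and 45 of 4360 genes when members were chosen at 1000 UMIs per barcode. The contrast was lower in AOM PN for 25 of 41 lysosomal genes, 9 of 16 hypoxia genes, 11 of 18 glycolysis genes and 8 of 22 NRF2 genes, with 2 lysosomal genes and no gene of the other 3 lists higher. It was higher in AOM PN for 11 of 30 interferon-stimulated genes and lower for none. Without AOM PN 2 the counts were 17 lysosomal and 5 interferon-stimulated genes, and with members chosen at 1000 UMIs they were 6 and 0. Ctsb had a difference of -1.31 ± 0.15 (SE), adjusted p = 7.39e-05, Cstb of -1.55 ± 0.15 (SE), adjusted p = 6.58e-05 and Cd63, a lysosomal membrane protein gene, of -1.73 ± 0.21 (SE), adjusted p = 7.39e-05. For Cd63 the members stood at 139, 149 and 278 CPM in AOM PN and 772, 909.9 and 813 CPM in Apc ICI, against 176, 206 and 219 CPM and 327, 320.0 and 214 CPM in the others, so the members of AOM PN overlapped the other neutrophils and those of Apc ICI did not.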

How the data were processed

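Single-cell RNA was measured in whole colon tumours, 3 AOM PN and 3 Apc ICI samples with 1 library each, prepared with 10x Genomics 3′ v3 chemistry per the labels' protocols. The authors deposited raw UMI counts for 31053 features in 64505 barcodes, made with Cell Ranger 6.1.2 against mm10, per the submitters' processing notes; the annotation and the calling of cells are not given in the sources used here. The labels do not say whether the samples came from separate animals, and p-values therefore rest on sample-to-sample spread that may be technical. Intervals cover counting error only.

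Barcodes were gated on raw counts as the report states, with no cells clustered. Doublets were scored against simulated doublets within a library (0.8% expected per 1000 barcodes) and removed only in an alternative. UMI counts were summed per library and population and tested with edgeR 4.0.16 (quasi-likelihood, TMM, filterByExpr) under R 4.3.3, and p-values were adjusted over all genes tested by Benjamini and Hochberg's method; members against others and the difference between models had the library as a block. Levels are CPM on TMM library sizes. The scripts were tested on simulated data. Shares were compared by an exact permutation test (scipy 1.17.1, Python 3.11.15). Alternatives included DESeq2 1.42.0, its size factors, no filter on low counts, other thresholds, thinning to 1000 UMIs, removal of doublets, of barcodes with macrophage transcripts (C1qb, C1qc, Adgre1, Csf1r, Mrc1 and Ms4a7 among them) and of haemoglobin genes, and leaving out each library. Fits within 1 model and members chosen at 1000 UMIs were added after seeing the data.

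The members and gene lists were chosen with earlier results of these data known. Named genes between members and others were the 12 highest and 12 lowest folds among genes called, at 20 CPM or more in the higher population and moving one way in every library. Between models in members they were the 10 highest and 10 lowest among genes called whose groups did not overlap, and for the difference between models the 5 highest and 5 lowest called, both at 20 CPM or more in the highest population. The 17 genes of the rule and predicted genes were left out. Other genes named belong to the lists. Some genes that these rules pick are not reported here. Lists not described in the report gave, between members and others, integrated stress response 3 higher and 1 lower of 16, angiogenesis and proteases 8 higher and 5 lower of 20, p53 targets and cell death 3 higher and 2 lower of 23, NADPH oxidase 1 higher and 3 lower of 12, immediate early and heat shock 8 higher and 3 lower of 21, oxidative phosphorylation 0 higher and 2 lower of 33, dendritic markers 2 higher and 0 lower of 4, mast cell and basophil markers 0 higher and 3 lower of 4. Over all genes tested 10.4% were higher and 13.3% lower. Of 3 T and NK, 1 B and 6 epithelial markers tested edgeR called 0 (0 at an unadjusted p under 0.05, and DESeq2 called 0), and no eosinophil marker passed the filter.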

Additional observations from a re-analysis of the deposited data

Results flagged for a closer look

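The contrast of members with the other gated neutrophils differed between the models for the genes below by edgeR's test of the difference itself, in log2 units and with the value negative where the contrast was lower in AOM PN. No explanation was weighed. Higher in AOM PN were Bst2, an antiviral membrane protein (2.12 ± 0.32 (SE), adjusted p = 3.6e-04), the interferon-inducible Ifi206 (2.04 ± 0.53 (SE), adjusted p = 0.0173) and Ifi211 (1.94 ± 0.38 (SE), adjusted p = 0.00257), the phospholipase Pla2g4a (1.92 ± 0.38 (SE), adjusted p = 0.00291) and the integrin subunit Itgb7 (1.88 ± 0.39 (SE), adjusted p = 0.00398). Bst2 was at 53.3, 83.2 and 120.3 CPM in the members of AOM PN and 62.2, 127 and 24 CPM in those of Apc ICI, against 37.7, 34.6 and 20.7 CPM and 85.1, 235 and 45.7 CPM in the others. Its level was above that of the other neutrophils in each AOM PN library and below it in each Apc ICI library. The Ifi206 UMIs of AOM PN members, 20 in all, came from AOM PN 2 alone, and leaving out Apc ICI 2 ended its call (adjusted p = 0.112). That of Ifi211 was lost without AOM PN 2 (adjusted p = 0.0851) or Apc ICI 2 (adjusted p = 0.0639), and that of Itgb7 without Apc ICI 2 (adjusted p = 0.0569).

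Lower in AOM PN were Naglu (-3.70 ± 0.70 (SE), adjusted p = 0.00223), Syngr1 (-3.61 ± 0.99 (SE), adjusted p = 0.0236), the clock gene partner Cipc (-3.49 ± 0.71 (SE), adjusted p = 0.00346), Rragd (-2.98 ± 0.51 (SE), adjusted p = 0.00106) and the chemoattractant Prok2 (-2.90 ± 0.80 (SE), adjusted p = 0.0246). Cipc stood at 0, 2.15 and 0 CPM in the members of AOM PN and 25.7, 26.4 and 17.3 CPM in those of Apc ICI, against 2.26, 1.93 and 2.37 CPM and 5.1, 2.68 and 1.28 CPM in the others, so the members of Apc ICI were the high sums. Naglu lost its call without AOM PN 2 (adjusted p = 0.0629). Syngr1 lost it without AOM PN 1, AOM PN 2 or Apc ICI 2 (adjusted p = 0.102, 0.103 and 0.0882), and with 1 UMI in AOM PN members its fitted value depends on the prior count. Prok2 lost it without AOM PN 1, AOM PN 2, Apc ICI 1 or Apc ICI 2 (adjusted p = 0.15, 0.156, 0.199 and 0.0951). The differences given in the report for Tst (-2.77), Cd63 (-1.73), Cstb (-1.55), Slc40a1 (-1.32), Ctsb (-1.31), Csf1 (-1.31), Cd274 (-1.14), Tfeb (-1.03) and Vegfa (-1.01) belong with these. Groups of 3 libraries are too small for a test of single outlying samples.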

How the results depend on the processing

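With all 6 libraries, the share of members was lower in AOM PN under every alternative threshold, depth or filter. The difference ran from 11.1 (1000 UMIs per barcode) to 22.1 percentage points (2 of the 6 neutrophil genes). Each had p = 0.1 in the exact permutation test with 3 libraries against 3. Since the groups did not overlap, the direction also held with any 1 library left out, where the size can lie outside this range. With the replicate number as a block the difference was -19.2, to which that p does not apply. Same-numbered libraries of the 2 models did not deviate together (correlations of 0.0264, 0.116 and 0.0254 in members and -0.242, 0.127 and -0.261 in the others). Differently numbered libraries gave -0.110 to 0.0590 in members and -0.185 to 0.346 in the others. Correlations over 3 libraries per model cannot settle a pairing, and the labels do not say that the numbers pair the samples. The replicate block gave 1464 calls in place of 1409 between models in members and 178 in place of 173 in the others. Without the library as a block, 426 genes in place of 1656 were called between members and others, and 50 in place of 889 for the difference between models. With counts thinned to 1000 UMIs per barcode the calls were 801 between members and others, 471 between models in members and 446 for the difference. With members chosen at 1000 UMIs, an alternative chosen after seeing the data, they were 845, 109 and 45, and the median of all genes for the difference moved to -0.29. Fewer genes were tested under both (3958 and 3627 in place of 7000 between members and others). Without barcodes holding macrophage transcripts 957 were called between members and others, and in AOM PN alone 1012. The cause was not tested for these. Among the other neutrophils 388 genes were called by DESeq2 and 928 with no filter on low counts. Leaving out 1 library at a time gave 930 to 1617 calls between members and others, 776 to 1454 between models in members, 59 to 133 in the others and 281 to 1007 for the difference.

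Some named genes changed sign. Ifi206 had a difference between models of -2.53 with members chosen at 1000 UMIs and of -3.80 to 2.31 when 1 library was left out (lowest without AOM PN 2), and Naglu one of 0.81 with members chosen at 1000 UMIs (adjusted p = 0.952, 0.628 and 0.945). Within AOM PN alone Cd274 (-0.15), Csf1 (-0.17), Ltf (-0.50), Slc40a1 (-0.083) and Tfeb (-0.18) had a sign opposite to that over all libraries, with none called. Of 1743 alternative values for 99 genes named here or picked by the naming rule between members and others, 1579 kept direction and call, 130 kept direction but lost the call and 29 gained it. All 277 values for 20 such genes between models in members kept both. Of 293 for 19 genes of the difference, 235 kept both and 55 lost the call. These tallies leave out alternatives under which a gene had too few counts to be tested. The libraries held 82 to 363 members in AOM PN and 163 to 743 in Apc ICI, and the member sums held 421897 to 2832254 UMIs in AOM PN and 794201 to 3425977 in Apc ICI. With members chosen at 1000 UMIs, 848 genes in place of 5543 had enough counts to be tested between models in members.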
